A study of Mus musculus with 4 samples.

Results

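Interleukins are secreted proteins through which leukocytes and their precursors signal to each other. Most act through a receptor assembled from several membrane chains, some of them shared. Chains of the cytokine receptor family pass the signal to JAK kinases and STAT factors, and those of the Il1, Il18 and Il17 receptors to MyD88-like or Act1 adaptors and on to NF-kB. In bone marrow such receptors steer progenitors toward lymphoid, myeloid, basophil and mast cell fates. The genes described here are those that carry an interleukin name on the bead array, ligands and receptor chains kept apart: every probe whose gene name or platform symbol begins with Il and a digit was taken, apart from the 6 probes of Il7r and Il5ra. The rule used names and no measured value, but it was set with earlier results of these data known. It found 142 of 45281 probes, for 84 genes: 40 ligands and antagonists (55 probes), 41 receptor chains (84 probes) and 3 genes of neither class, Il18bp, Il4i1 and Tmed1, which the array calls Il1rl1l.

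Total RNA of lineage-negative mouse bone marrow cells, the fraction left when cells with mature blood cell antigens are removed, was measured on 4 one-colour arrays. The Atad3afl/flMx1Cre group (2 arrays) carried floxed Atad3a, a mitochondrial inner membrane ATPase gene, and Mx1Cre, a Cre recombinase behind an interferon-inducible promoter, and the Atad3afl/fl group (2 arrays) carried the floxed alleles alone. Both groups received poly I:C, a synthetic RNA that induces interferon, and were taken on day 12 afterwards. Mx1Cre acts in many interferon-responsive cell types and the control lacks it, so what Cre itself does and what the loss of Atad3a does cannot be told apart. The sources used here give no age, sex or pooling. Whether replicates were separate animals is not in the labels, so p-values cover the spread of these samples alone, which may be a technical one, and the number of arrays limits the precision. Atad3a itself had deposited signals of 1021.2 and 915.8 in Atad3afl/flMx1Cre arrays, against 2050.2 and 2485.5 in Atad3afl/fl arrays. It was 2.10-fold lower (log2 change -1.07, SE 0.13, adjusted p = 0.00866). Where its single probe lies with respect to the deleted part of the gene is unknown here, so this is a limited check of the labels. Detected probes, those with a detection p under 0.05, numbered 17901 and 18072 in Atad3afl/flMx1Cre arrays and 17536 and 16968 in Atad3afl/fl arrays.

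Many interleukin probes gave no signal above background, as was so for the array as a whole. Over the whole array, 18367 of 45281 probes were detected on at least 2 arrays. Of the 142 interleukin probes, 74 were detected on no array, 8 on 1 array, and 60 on at least 2 arrays, a similar share. These 60 were tested, for 42 genes: 13 ligands, 26 receptor chains and the 3 others, each represented by its brightest tested probe. By limma at an adjusted p under 0.05, 3 ligand genes were higher in the Atad3afl/flMx1Cre arrays (Il4, Il6 and Il7) and 1 was lower (Il18). By the same test 9 receptor genes were higher and 2 were lower (Il2ra and Il1rl1). Cxcr2, a chemokine receptor counted here for its array name Il8rb, is among the 9. Over all 10583 named genes tested, 14.7% were higher and 14.1% lower, 28.9% in either direction. The median log2 change was 0.34 for the receptor genes, 0.13 for the ligands and 0.0019 for all tested genes. Scaling each array to its median in place of quantile normalisation put 1228 of all tested genes higher and 1863 lower, against 1560 and 1495, and moved the median of all genes to -0.10, while the receptor and ligand counts stayed the same. A gene could enter the test through the group in which it was high, so the counts were also taken with a stricter filter and with none. Among genes detected on all 4 arrays, 8 of 20 receptor genes were higher and 2 lower, and 2 of 8 ligand genes were higher and 1 lower, beside 14.6% higher and 13.2% lower of 9079 such genes. With no detection filter, 9 of 41 receptor genes and 3 of 40 ligand genes were higher, and 2 and 1 were lower, beside 6.68% higher and 6.65% lower of 20664 named genes. The higher receptor count rested on both Atad3afl/flMx1Cre arrays: it was 3 without replicate 1 and 3 without replicate 2 of that group, and 6 without Atad3afl/fl replicate 2. The count of higher ligands was 1, 0 and 2 in those fits, and over all tested genes 354, 299 and 934 were higher. Background correction widens the changes of dim probes: without it, or with the authors' processed values, the log2 changes of Il6, Il7, Il18, Il1rl1, Il12rb1, Il18rap, Cxcr2 and Il2ra were smaller by more than 1.5 times, and of these only Il7 and Il18 lost their calls. With the authors' values those of Il17rb, Il6ra and Il4i1 were also smaller to that extent, and their calls were kept.

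**Figure D1:**
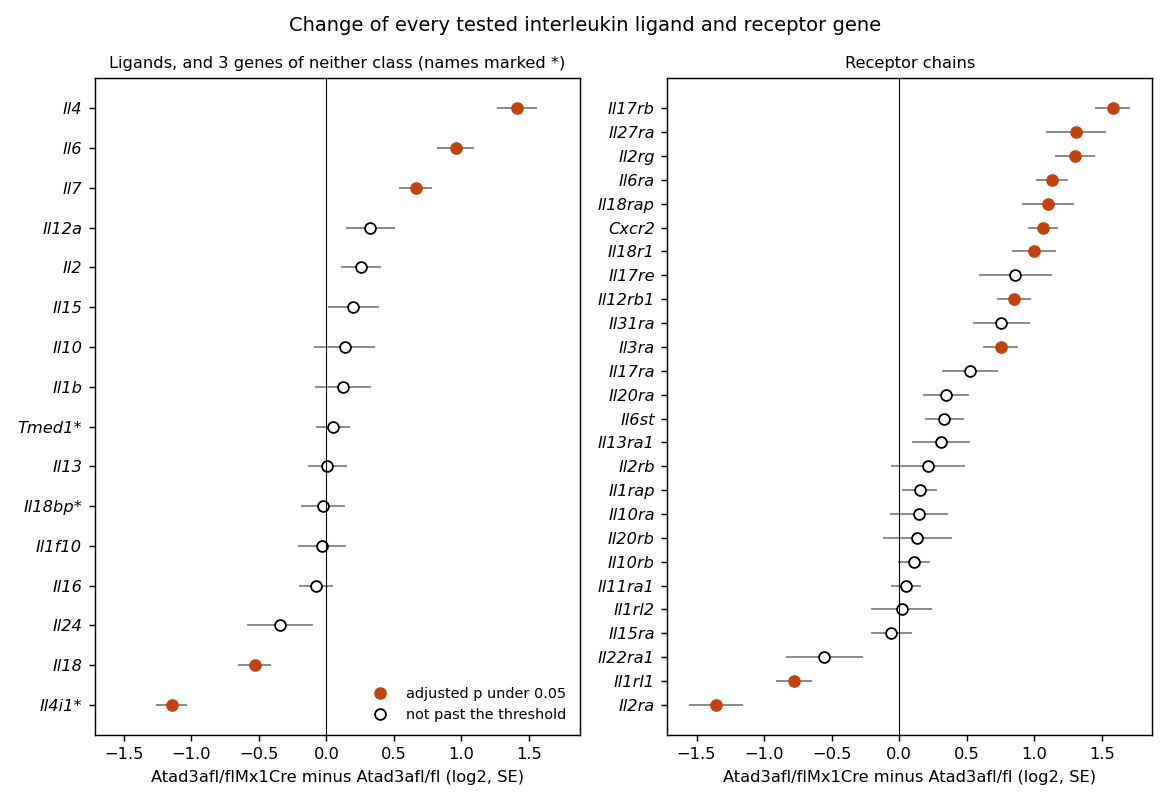
Log2 change of each of the 42 tested interleukin genes, Atad3afl/flMx1Cre minus Atad3afl/fl, with the standard error as a bar (n = 2 arrays per group); filled points passed an adjusted p under 0.05. Receptor chains reach from -1.35 for Il2ra to 1.58 for Il17rb, and 9 of the 13 ligands did not pass. Il7, Cxcr2 and Il20ra were detected on neither Atad3afl/fl array, so their points are set against values not above background.

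Il4, the cytokine of type 2 immunity that basophils make, had the largest change among the 13 tested ligands. Its deposited signals were 504.0 and 530.0 in Atad3afl/flMx1Cre arrays, against 265.2 and 256.8 in Atad3afl/fl arrays. After background correction and quantile normalisation its log2 intensities were 8.82 and 8.91 in Atad3afl/flMx1Cre arrays, against 7.60 and 7.31 in Atad3afl/fl arrays. Both Atad3afl/flMx1Cre arrays stood clear of both Atad3afl/fl arrays, as the groups did for 72.9% of all tested genes. That share applies wherever groups are said below not to overlap. Il4 was 2.66-fold higher (log2 change 1.41, SE 0.15, adjusted p = 0.00613). The call was just lost without Atad3afl/flMx1Cre replicate 2 (1.37, adjusted p = 0.0507). Il13, which lies next to Il4 on chromosome 11 and shares a receptor with it, was detected on 1 array of each group and read 5.11 and 4.87 in Atad3afl/flMx1Cre arrays, against 5.06 and 4.91 in Atad3afl/fl arrays. Those values overlap, near background, and the log2 change was 0.01 (95% interval -0.37 to 0.38).

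The promoter of Il4 is shown because Il4 moved farthest among the ligands. RefSeq windows (GRCm38.p6) run from 250 bases before to 50 bases after each start, were matched for 67 of the 84 genes, and were searched on both strands for TTCNNNGAA for STAT, TGATGNAA for ATF4 and CEBP and AGATAA for GATA factors, and for a 10-base IRF and a 10-base NF-kB pattern. Capitals mark any match. The window at the start farther upstream is chr11:53618616-53618915, minus strand:
Il4: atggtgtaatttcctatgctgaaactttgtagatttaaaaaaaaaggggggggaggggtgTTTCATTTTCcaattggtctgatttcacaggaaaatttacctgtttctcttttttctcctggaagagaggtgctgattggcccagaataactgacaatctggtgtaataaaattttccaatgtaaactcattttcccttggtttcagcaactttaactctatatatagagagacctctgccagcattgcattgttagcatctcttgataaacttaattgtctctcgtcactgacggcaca
It holds 1 IRF match, a motif present in 3.44% of all 32851 windows, and the window at the other listed start, not printed, holds 1 STAT match, present in 8.3% of all windows. Of the 12 genes that were higher, Il7, Il12rb1 and Il27ra had no matched window. Of 12 windows of the other 9, 2 had a STAT, 1 a GATA, 1 an IRF and 2 an NF-kB match, and none an ATF4 and CEBP match (3.97% of all windows). A match is a string of letters and shows no binding.

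Il6, a cytokine of inflammation that also acts on early progenitors, was higher too. It read 6.21 and 6.45 in Atad3afl/flMx1Cre arrays, against 5.39 and 5.36 in Atad3afl/fl arrays, with no overlap. The gene was 1.94-fold higher (log2 change 0.96, SE 0.13, adjusted p = 0.0121). Il7, the stromal factor that early B and T cell precursors need, was detected on both Atad3afl/flMx1Cre arrays (5.43 and 5.49) and on neither Atad3afl/fl array (4.88 and 4.72). The log2 change of Il7 as measured was 0.66 (adjusted p = 0.0228). With the undetected side set at the lowest detected signal, Il7 was at least 1.35-fold higher, a bound without a test of its own. Its 2 other probes were detected on no array. The calls of Il6 and Il7 were lost without either Atad3afl/flMx1Cre array (adjusted p = 0.0519 and 0.0775 for Il6, 0.112 and 0.133 for Il7), and that of Il7 without Atad3afl/fl replicate 2 (0.0595). Without background correction the log2 change of Il6 was 0.40 (adjusted p = 0.0199) and that of Il7 was 0.22 (adjusted p = 0.0804).

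Il18, an Il1 family cytokine that is released after cleavage by caspase 1, was the ligand that fell. It read 5.92 and 5.95 in Atad3afl/flMx1Cre arrays, against 6.55 and 6.38 in Atad3afl/fl arrays (log2 change -0.53, SE 0.12, adjusted p = 0.0384). The groups did not overlap, but the call was lost under 9 of 13 alternatives, each single array left out among them, with adjusted p-values up to 0.180. A second Il18 probe was detected on 1 array and not tested.

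Most ligands did not pass. Il16, a T cell chemoattractant made as a large precursor, read 10.48 and 10.42 in Atad3afl/flMx1Cre arrays, against 10.62 and 10.43 in Atad3afl/fl arrays, so the groups overlapped (95% interval of the log2 change -0.41 to 0.26), and a dimmer Il16 probe gave -0.05. Il12a, the p35 subunit of Il12, read 9.19 and 9.64 in Atad3afl/flMx1Cre arrays, against 9.06 and 9.12 in Atad3afl/fl arrays, while Il12b, its partner subunit, was detected on no array. The log2 change of Il12a was 0.32 (interval -0.15 to 0.80). Il15, which sustains NK cells and memory T cells, was measured by 3 tested probes with log2 changes of 0.20 to 0.80, none past the threshold, and all 3 read higher on replicate 2 than on replicate 1 of the Atad3afl/flMx1Cre group. For the brightest, Il15 read 8.49 and 8.93 in Atad3afl/flMx1Cre arrays, against 8.60 and 8.42 in Atad3afl/fl arrays. The other tested ligands, Il1b, Il1f10, Il2, Il10 and Il24, had log2 changes between -0.34 and 0.26, and none passed. Il1a, Il1rn, Il3, Il5, Il9, Il11, Il33, Il34 and the 6 Il17 family ligands were among the 27 ligand genes detected on fewer than 2 arrays, for which no change could be seen at this sensitivity.

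**Figure D2:**
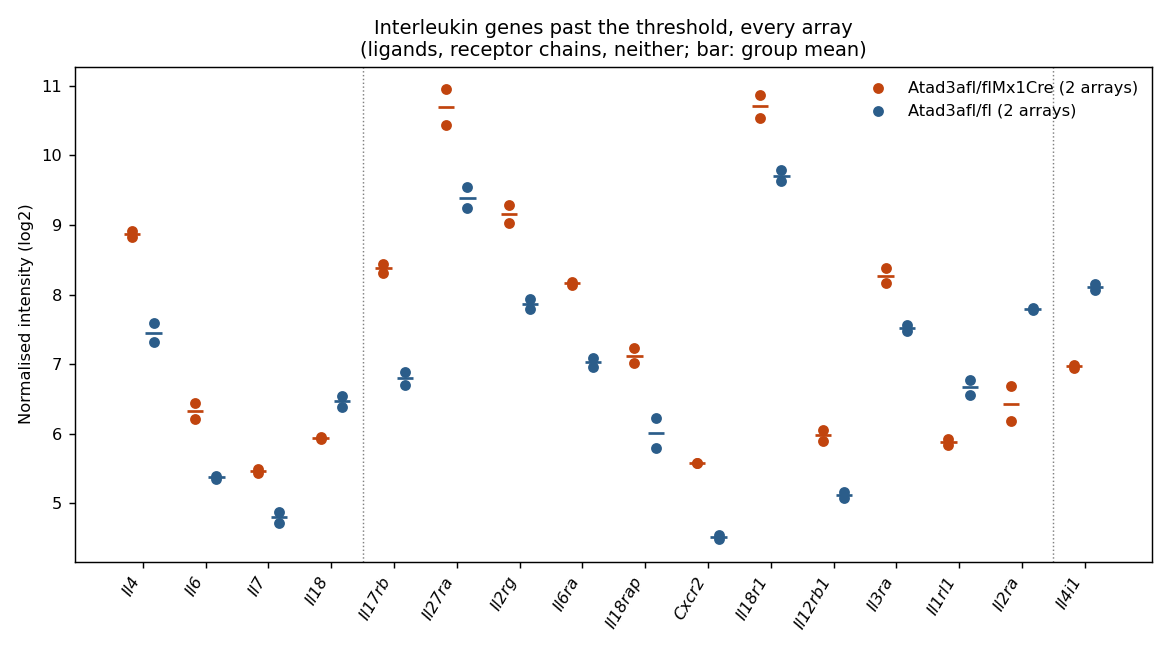
Normalised log2 intensity of the 16 interleukin genes that passed the threshold, by array, with Atad3afl/flMx1Cre (orange) left of Atad3afl/fl (blue); points are arrays (n = 2 per group), bars the group means, and dotted lines part ligands, receptor chains and Il4i1. In each gene both arrays of one group lie beyond both arrays of the other, as they do for 72.9% of all tested genes. The genes shown were picked for a difference between the groups.

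Receptor chains of the common gamma family moved in opposite directions. Il2rg, the gamma chain that the receptors for Il2, Il4, Il7, Il9, Il15 and Il21 share, read 9.29 and 9.03 in Atad3afl/flMx1Cre arrays, against 7.79 and 7.93 in Atad3afl/fl arrays. It was 2.47-fold higher (log2 change 1.30, SE 0.15, adjusted p = 0.0073). A dimmer Il2rg probe gave a log2 change of only 0.27 (adjusted p = 0.300). Il2ra, the alpha chain CD25 that raises the affinity for Il2 and is found on pre-B cells, thymocytes and activated T cells, was the receptor gene that fell most. Its log2 intensities were 6.69 and 6.18 in Atad3afl/flMx1Cre arrays, against 7.80 and 7.77 in Atad3afl/fl arrays. The fall was 2.56-fold (log2 change -1.35, SE 0.20, adjusted p = 0.0130), and a second probe, assigned to Il2ra by the platform table under the array name A630004K05RIK and detected on 1 Atad3afl/flMx1Cre array, read 5.26 and 4.74 in Atad3afl/flMx1Cre arrays, against 6.83 and 6.68 in Atad3afl/fl arrays (log2 change -1.75, adjusted p = 0.00822). The call of the brighter Il2ra probe was narrowly lost without Atad3afl/flMx1Cre replicate 2 (log2 change -1.10, adjusted p = 0.0519) and without Atad3afl/fl replicate 2 (-1.37, 0.0513).

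Il2rb, the beta chain of the Il2 and Il15 receptors, read 7.16 and 6.83 in Atad3afl/flMx1Cre arrays, against 6.44 and 7.12 in Atad3afl/fl arrays, with overlap. Its log2 change was 0.21 (interval -0.50 to 0.93), so the 3 chains of the high-affinity Il2 receptor gave 1 rise, 1 fall and 1 change that did not pass. Il15ra, the neighbour of Il2ra on chromosome 2 and the chain that presents Il15, had a log2 change of -0.06 (interval -0.46 to 0.35) by its brighter tested probe, with overlap. The other tested Il15ra probe gave -0.35 with no overlap (interval -0.73 to 0.023, adjusted p = 0.134). Il4ra was detected on 1 array, and Il9r and Il21r on none. The promoter window of Il2ra, chr2:11642542-11642841 on the plus strand, is shown as that of the largest fall:
Il2ra: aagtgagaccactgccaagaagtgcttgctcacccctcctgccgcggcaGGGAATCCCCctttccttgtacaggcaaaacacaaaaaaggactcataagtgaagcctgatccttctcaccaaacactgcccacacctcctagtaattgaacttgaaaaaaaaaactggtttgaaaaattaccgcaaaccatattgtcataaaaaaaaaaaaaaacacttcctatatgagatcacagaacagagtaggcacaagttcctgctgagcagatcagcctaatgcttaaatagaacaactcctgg
It holds 1 NF-kB match, a motif present in 20.7% of all windows. Il4i1 also has 1 such match, and of the 5 windows of the 4 genes that were lower, 2 hold it.

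Il4i1, an amino acid oxidase gene first described as induced by Il4 in B cells, fell as well, although it is neither ligand nor receptor. It read 6.95 and 6.99 in Atad3afl/flMx1Cre arrays, against 8.07 and 8.16 in Atad3afl/fl arrays. Its fall of 2.21-fold (log2 change -1.14, SE 0.11, adjusted p = 0.00577) kept its call in all 13 alternatives. Il18bp, the secreted inhibitor of Il18, and Tmed1, a protein of the early secretory pathway, had log2 changes of -0.03 and 0.05 and did not pass.

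The 2 chains of the Il18 receptor rose, while the neighbouring chain gene Il1rl1 fell. Il18r1, the ligand-binding chain, read 10.87 and 10.54 in Atad3afl/flMx1Cre arrays, against 9.79 and 9.63 in Atad3afl/fl arrays. It was 2.00-fold higher (log2 change 1.00, SE 0.16, adjusted p = 0.0170), and a dim second Il18r1 probe gave 0.97 (adjusted p = 0.00942), while another was detected on no array. Il18rap, the accessory chain that completes the receptor, read 7.23 and 7.01 in Atad3afl/flMx1Cre arrays, against 5.80 and 6.23 in Atad3afl/fl arrays. It was 2.15-fold higher (log2 change 1.10, SE 0.19, adjusted p = 0.0197), but a dimmer Il18rap probe, detected on 1 array of each group, gave -0.16 (adjusted p = 0.592). The calls of both genes were lost without either Atad3afl/flMx1Cre array (adjusted p = 0.0849 and 0.0532 for Il18r1, 0.105 and 0.0804 for Il18rap) and that of Il18r1 without Atad3afl/fl replicate 2 (0.0598).

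Il1rl1, which encodes ST2, the receptor for Il33 on mast cells, basophils and type 2 lymphoid cells, read 5.93 and 5.84 in Atad3afl/flMx1Cre arrays, against 6.77 and 6.56 in Atad3afl/fl arrays. It was 1.72-fold lower (log2 change -0.78, SE 0.13, adjusted p = 0.0186), with no overlap of the groups. Leaving out either Atad3afl/flMx1Cre array ended the call (adjusted p = 0.0921 and 0.114), and a second Il1rl1 probe was detected on no array. In the RefSeq table the genes Il1r2, Il1r1, Il1rl2, Il1rl1, Il18r1 and Il18rap follow each other on chromosome 1 with no other protein-coding gene between them. Il1r2 and Il1r1 were not tested, Il1rl2 had a log2 change of 0.02, and the next 3 genes gave -0.78, 1.00 and 1.10. The windows of Il1rl1 and Il18r1 are shown because these adjacent genes moved in opposite directions. Il1rl1 has 2 listed starts on the plus strand, chr1:40429320-40429619 and chr1:40439379-40439678, and the third listed start of Il18r1 lies in chr1:40465756-40466055, plus strand:
Il1rl1 start 1: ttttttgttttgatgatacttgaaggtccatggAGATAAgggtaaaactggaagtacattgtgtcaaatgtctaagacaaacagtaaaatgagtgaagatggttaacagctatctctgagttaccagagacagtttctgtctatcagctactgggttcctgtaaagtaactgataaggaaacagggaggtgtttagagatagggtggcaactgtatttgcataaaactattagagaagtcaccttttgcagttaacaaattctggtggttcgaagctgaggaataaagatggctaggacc
Il1rl1 start 2: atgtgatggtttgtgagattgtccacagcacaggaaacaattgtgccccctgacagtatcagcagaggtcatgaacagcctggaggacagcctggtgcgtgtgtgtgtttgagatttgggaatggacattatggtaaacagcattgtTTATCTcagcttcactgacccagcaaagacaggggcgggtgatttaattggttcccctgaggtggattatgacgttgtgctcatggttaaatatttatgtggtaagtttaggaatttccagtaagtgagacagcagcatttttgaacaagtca
Il18r1 start 3: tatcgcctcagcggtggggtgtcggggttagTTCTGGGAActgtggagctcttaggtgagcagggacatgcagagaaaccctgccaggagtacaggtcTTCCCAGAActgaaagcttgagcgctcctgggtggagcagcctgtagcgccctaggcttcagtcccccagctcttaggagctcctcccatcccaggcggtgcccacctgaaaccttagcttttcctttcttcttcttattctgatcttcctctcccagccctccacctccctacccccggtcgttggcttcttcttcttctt
Both Il1rl1 windows hold 1 GATA match (11.2% of all windows), and this Il18r1 window holds 2 STAT matches (8.3%). The other listed starts of Il18r1 and that of Il18rap hold no match to the 5 motifs. Il1rap, the shared accessory chain of the Il1 and Il33 receptors, was tested by 4 probes with log2 changes of 0.01 to 0.42, none past the threshold.

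Chains of the Il6 and Il12 receptor family were higher or did not pass, and none fell. Il6ra, the chain that binds Il6, read 8.14 and 8.19 in Atad3afl/flMx1Cre arrays, against 6.96 and 7.09 in Atad3afl/fl arrays. It was 2.20-fold higher (log2 change 1.13, SE 0.12, adjusted p = 0.00621), and both dimmer probes passed too. One of them was undetected in both Atad3afl/fl arrays and gave a log2 change of 0.84 as measured (adjusted p = 0.0229), with a bound of at least 1.64-fold. The other gave 0.47 for Il6ra (adjusted p = 0.0475). Il27ra, the chain that binds Il27, read 10.95 and 10.44 in Atad3afl/flMx1Cre arrays, against 9.54 and 9.24 in Atad3afl/fl arrays. It was 2.47-fold higher (log2 change 1.31, SE 0.22, adjusted p = 0.0185), with 1.08 (adjusted p = 0.0146) by the second Il27ra probe. Il6st, the signalling chain gp130 that both of these receptors use, read 8.30 and 8.05 in Atad3afl/flMx1Cre arrays, against 7.76 and 7.92 in Atad3afl/fl arrays. Its log2 change of 0.34 (interval -0.05 to 0.72, adjusted p = 0.153) did not pass, although the groups did not overlap, as they did not for 72.9% of all tested genes. The call of Il6ra ended without Atad3afl/flMx1Cre replicate 2 (adjusted p = 0.0541), and that of Il27ra without Atad3afl/flMx1Cre replicate 1 or Atad3afl/fl replicate 2 (0.0746 and 0.0668).

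Il12rb1, the chain shared by the Il12 and Il23 receptors, read 6.05 and 5.90 in Atad3afl/flMx1Cre arrays, against 5.17 and 5.08 in Atad3afl/fl arrays (log2 change 0.85, SE 0.12, adjusted p = 0.0130). Its dimmer probe gave a log2 change of -0.0027 (adjusted p = 0.991) for Il12rb1, and the mean of both did not pass (0.42, adjusted p = 0.0584). The Il12rb1 call was also lost without either Atad3afl/flMx1Cre array (adjusted p = 0.0874 and 0.0685). Il31ra, a chain of the receptor for the itch cytokine Il31, read 7.05 and 7.58 in Atad3afl/flMx1Cre arrays, against 6.49 and 6.62 in Atad3afl/fl arrays. The log2 change of 0.76 missed the threshold (adjusted p = 0.0563) and passed under 5 of the alternatives. Il11ra1, the Il11 receptor chain, which has a near-identical copy in the mouse genome that its probes may share, had log2 changes of 0.05 and 0.01 by its 2 probes.

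**Figure D3:**
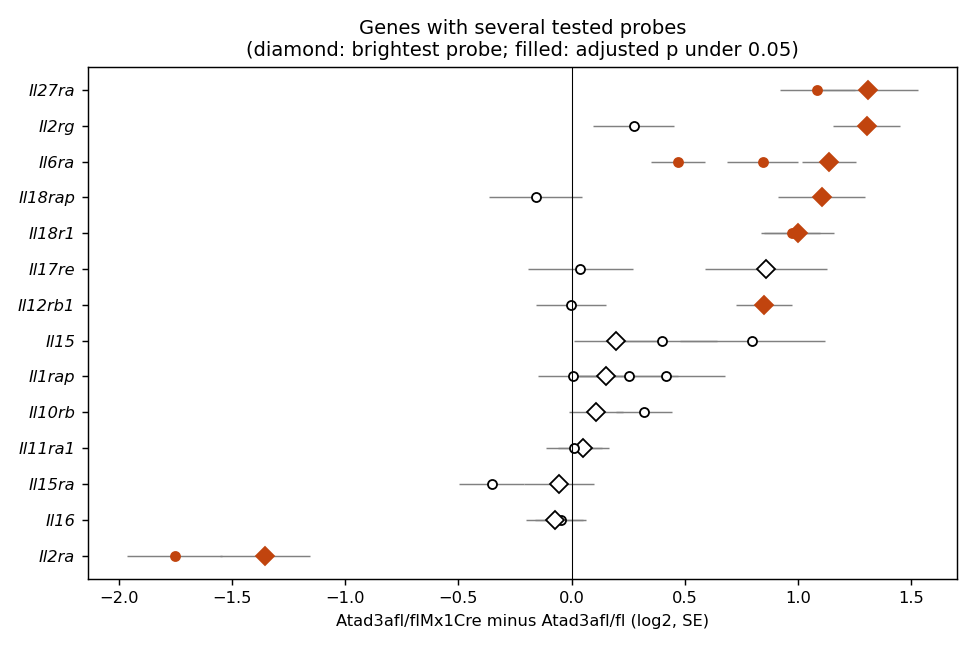
Log2 change with standard error of every tested probe for the 14 genes with several tested probes, Atad3afl/flMx1Cre minus Atad3afl/fl (n = 2 arrays per group); diamonds are the brightest probe, and filled marks passed an adjusted p under 0.05. All tested probes of Il2ra, Il6ra, Il18r1 and Il27ra passed in one direction, whereas Il2rg, Il12rb1 and Il18rap passed by 1 probe only.

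Il17rb, the chain that binds Il25 and Il17b and is found on type 2 lymphoid and some myeloid cells, had the largest rise of all 42 genes. It read 8.44 and 8.31 in Atad3afl/flMx1Cre arrays, against 6.89 and 6.71 in Atad3afl/fl arrays. The gene was 2.99-fold higher (log2 change 1.58, SE 0.13, adjusted p = 0.00392) and kept its call in all 13 alternatives. Il17ra, the chain that all known Il17 receptors share, read 7.95 and 8.01 in Atad3afl/flMx1Cre arrays, against 7.72 and 7.19 in Atad3afl/fl arrays, and its log2 change of 0.53 (interval -0.01 to 1.07) did not pass. Il17re, which binds Il17c, gave 0.86 (adjusted p = 0.0777) by its brighter probe and 0.04 by the other. Il25 and the other Il17 ligands were detected on no array.

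Il3ra, the alpha chain through which Il3 drives basophil and mast cell growth, read 8.17 and 8.37 in Atad3afl/flMx1Cre arrays, against 7.48 and 7.56 in Atad3afl/fl arrays. It was 1.68-fold higher (log2 change 0.75, SE 0.13, adjusted p = 0.0200), and its call was lost when any 1 of the 4 arrays was left out (adjusted p = 0.0503 to 0.119). Its signalling partners, the common beta chain Csf2rb and the Il3-specific Csf2rb2, did not pass. Csf2rb was detected on neither Atad3afl/fl array and had a log2 change of 0.77 against values not above background (adjusted p = 0.0597). Csf2rb2 had a log2 change of 0.87 (adjusted p = 0.0606). Chains of the Il10 receptor family did not pass: Il10ra and Il10rb, the pair that forms the Il10 receptor, gave log2 changes of 0.15 and 0.11, and a second Il10rb probe gave 0.32 (interval -0.0033 to 0.64, adjusted p = 0.120). Il20rb gave 0.13 and Il22ra1 -0.55, while Il20ra was detected on neither Atad3afl/fl array and gave 0.35 against values not above background (adjusted p = 0.195). Cxcr2, which the array still names Il8rb, is a chemokine receptor of neutrophils. It was detected on both Atad3afl/flMx1Cre arrays at 5.58 and 5.59 and on neither Atad3afl/fl array. Its log2 change as measured was 1.07 (adjusted p = 0.00626), and the bound put Cxcr2 at least 1.47-fold higher. A second Cxcr2 probe was detected on no array, so the call rests on 1 of 2 probes. The call was lost without either Atad3afl/flMx1Cre array (adjusted p = 0.0528 and 0.0545).

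Ligands and their receptor chains can be set side by side. Il6 and Il6ra both rose, while Il6st did not pass (log2 change 0.34). Il18 fell where Il18r1 and Il18rap rose. The Il18 call was lost under 9 of 13 alternatives, and a dimmer Il18rap probe gave -0.16. Il4 rose, whereas of its receptor chains Il2rg rose, Il13ra1 did not pass (log2 change 0.31) and Il4ra was not tested. Whether such pairs moved in concert was not tested.

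Other genes of interleukin signalling were taken as a list of 28. It held kinases, STAT factors, adaptors and feedback genes. It also held the receptor chains Csf2rb, Csf2rb2, Crlf2 and Sigirr, the cytokine Tslp, and Casp1, Nlrp3 and Pycard. Of 25 tested, 7 were higher, 1 lower and 17 did not pass, with a median log2 change of 0.39, beside 14.7% higher and 14.1% lower over all tested genes. Cish, a feedback inhibitor that STAT5 induces, read 10.09 and 10.05 in Atad3afl/flMx1Cre arrays, against 8.02 and 7.99 in Atad3afl/fl arrays (log2 change 2.06, SE 0.11, adjusted p = 0.00176). Sigirr, a decoy-like inhibitor of Il1 family receptors, was higher by 0.84 (adjusted p = 0.0146). Stat4, which Il12 activates, rose by 0.67 (adjusted p = 0.0325), Stat3, used by Il6, by 0.66 (0.0186), Casp1, which cleaves Il1b and Il18, by 0.53 (0.0311), and Myd88, the Il1 and Il18 receptor adaptor, by 0.48 (0.0424). Traf6, the ubiquitin ligase downstream of MyD88, fell by 0.54 on the log2 scale (adjusted p = 0.0360).

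Genes on marker lists of the cell types that use these genes were called too, and the lists are short. Over all tested genes 14.7% were higher and 14.1% lower. In bulk RNA a change in the number of such cells and a change in RNA per cell cannot be told apart. Of 7 tested basophil and mast cell markers 5 were higher and none lower, with a summed intensity of 40215 and 45118 in Atad3afl/flMx1Cre arrays, against 25773 and 25864 in Atad3afl/fl arrays, and Tpsb2 was undetected. Il4, Il3ra and Il18r1 moved in the direction of this list and Il1rl1 in the opposite one. Of 9 tested T and NK cell markers 7 were higher and none lower, with sums of 25931 and 20739 in Atad3afl/flMx1Cre arrays, against 11425 and 10709 in Atad3afl/fl arrays, and Cd8a and Ncr1 were undetected. Il2rg, Il18rap and Il27ra were higher too, whereas Il2ra fell and Il2rb did not pass.

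The remaining lists stand beside the same shares over all tested genes, 14.7% higher and 14.1% lower. All 8 tested B lineage markers were lower, as were Il2ra and Il4i1. The B lineage markers had sums of 1112 and 1452 in Atad3afl/flMx1Cre arrays, against 17027 and 16821 in Atad3afl/fl arrays, and Pax5 was undetected. Of 5 tested eosinophil markers 3 were lower and none higher, with sums of 5352 and 3733 in Atad3afl/flMx1Cre arrays, against 9765 and 9784 in Atad3afl/fl arrays, and Siglecf was undetected. Of 7 tested monocyte, macrophage and dendritic cell markers 5 were higher and none lower, with sums of 11969 and 11095 in Atad3afl/flMx1Cre arrays, against 5840 and 5876 in Atad3afl/fl arrays, and Itgam and Flt3 were undetected. Of 8 tested neutrophil markers, the cells Cxcr2 is known from, 2 were higher and 2 lower, with sums of 24681 and 24240 in Atad3afl/flMx1Cre arrays, against 29545 and 30180 in Atad3afl/fl arrays. Of 3 tested stromal and endothelial markers, for the cells known to make Il7, 1 was higher and none lower, with sums of 2241 and 2194 in Atad3afl/flMx1Cre arrays, against 1449 and 1343 in Atad3afl/fl arrays, and Col1a1 and Lepr were undetected. Erythroid markers shifted most: 6 of 7 tested were lower and none higher (median log2 change -3.94), with sums of 6963 and 707.2 in Atad3afl/flMx1Cre arrays, against 41619 and 44296 in Atad3afl/fl arrays, and Hbb-b1 was undetected. The Atad3afl/flMx1Cre arrays stood apart from each other here: Slc4a1 read 8.73 and 4.38 and Hba-a1 12.52 and 8.28 on them. Of 5 tested stem and progenitor markers 4 were higher and 1 lower, with sums of 6257 and 6214 in Atad3afl/flMx1Cre arrays, against 2872 and 2990.4 in Atad3afl/fl arrays, and Flt3 was undetected. Of 5 tested megakaryocyte markers 4 were higher and 1 lower, with sums of 1959 and 2677 in Atad3afl/flMx1Cre arrays, against 980.2 and 1012 in Atad3afl/fl arrays. Among genes for antigens of mature cells, Cd3e and Cd79b were detected on all 4 arrays and Cd4 on 2. Cd8a, Itgam and Siglecf were detected on no array. The label calls the cells lineage-negative, and RNA does not measure the antigen on the cell surface. The part of these cell types in the changes of the interleukin genes was not tested.

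**Figure D4:**
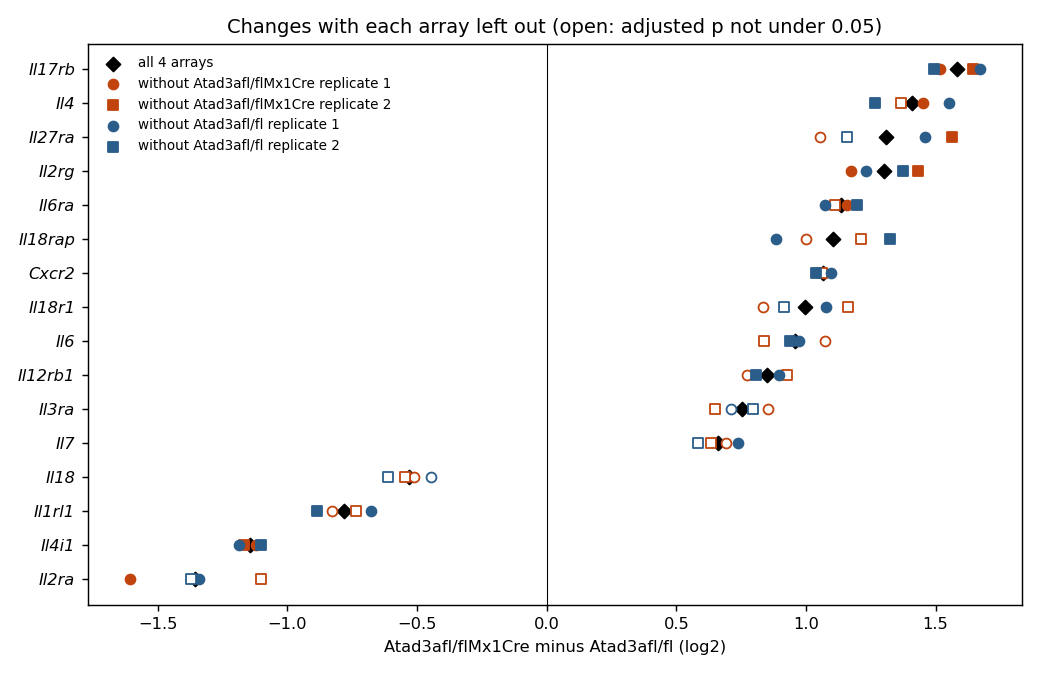
Log2 change of the 16 called genes over all 4 arrays (black diamonds) and with each array left out in turn, Atad3afl/flMx1Cre minus Atad3afl/fl; open marks did not pass an adjusted p under 0.05. No change crosses 0, while most calls were lost when an Atad3afl/flMx1Cre array (orange) was left out.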

How the data were processed

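Arrays of 4 samples were read from the deposited scanner table, whose non-normalized signal intensity and detection p-value per probe are given per the file headers. GenomeStudio made these values, per the submitters' processing notes, and its version and background settings are not stated there. The authors' processed intensity in the series matrix was an alternative only. It is on a linear scale and quantile normalized by its values, while its method is unknown.

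Signals were background corrected by limma 3.58.1 (R 4.3.3) with the neqc steps, negative controls inferred from detection p-values and an offset of 16, then quantile normalised and put on the log2 scale. The deposited intensity of dim probes depends most on these steps. The 18367 probes detected (p under 0.05) on 2 or more arrays were fitted with lmFit and eBayes, with 2 residual and 2.72 prior degrees of freedom and Benjamini-Hochberg adjustment over all of them. The fit was tested on simulated data. Probes took the platform's gene, updated through RefSeq (GRCm38.p6, names and gene order only), or else the array's own name. A group without detection gave a bound from the lowest detected signal of each array. Adjusted p-values are those of the fit on the measured values, not of the bound. Every tested member is named, and those past the threshold with their values. The members, lists and tests were chosen with earlier results of these data known. Alternatives were background correction, scaling, detection filter, replicate block, prior, probe averaging, the authors' values and each array left out. Slide and scan date are not known here. The values of 1 gene of the signalling list are not reported here.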

Additional observations from a re-analysis of the deposited data

How the results depend on the processing

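All 16 called genes kept their direction under each of the 13 alternatives that gave them a value (Il7, Cxcr2 and Il12rb1 were not tested with the strict detection filter). All 16 calls held with median scaling, where the median of all genes shifted to -0.10, and with no detection filter. Over all genes that scaling gave 1228 higher and 1863 lower, against 1560 and 1495, and leaving out 1 array gave 299 to 1325 higher and 442 to 1385 lower. Of the 26 genes that did not pass, 3 (Il17ra, Il17re and Il31ra) passed under some alternative. With no background correction, normexp without control probes, the authors' processed values, the replicate block or an intensity trend with a robust prior, 0 ligand genes were lower, against 1, since the call of Il18 was lost. No call other than that of Il18 was lost with the replicate block, with which Il17re and Il31ra passed. Same-numbered arrays deviated together with a correlation of only 0.03 across probes. A single correlation over all probes cannot exclude pairing, and whether the numbers pair the samples is not known here. Leaving out 1 array gave 0 to 3 higher and 0 lower ligand genes, and 3 to 10 higher and 0 to 2 lower receptor genes. Without Atad3afl/flMx1Cre replicate 1, 10 of the 16 calls were lost, and without replicate 2, 12. Those lost without Atad3afl/fl replicate 1 or 2 numbered 2 and 6. Fewer arrays leave fewer degrees of freedom. The sign turned only in uncalled genes near 0. With median scaling the log2 changes were -0.024 for Il10ra, -0.071 for Il10rb, -0.15 for Il11ra1, 0.031 for Il18bp and -0.043 for Tmed1, and with the mean of all detected probes -0.0094 for Tmed1. With 1 array left out the log2 changes ranged from -0.089 to 0.36 for Il10, -0.14 to 0.43 for Il10ra, -0.11 to 0.13 for Il13, -0.020 to 0.42 for Il15, -0.21 to 0.093 for Il15ra, -0.17 to 0.019 for Il16, -0.20 to 0.15 for Il18bp, -0.14 to 0.39 for Il1b, -0.23 to 0.16 for Il1f10, -0.21 to 0.24 for Il1rl2, -0.20 to 0.47 for Il20rb, -0.13 to 0.56 for Il2rb and -0.031 to 0.13 for Tmed1. Signal near background limits the dim members: 42 of the 84 genes had no probe detected on 2 arrays.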
